A study of Mus musculus with 8 samples.

Results

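The nuclear genes for the protein subunits of the mitochondrial ribosome were examined in hypothalamus RNA of C57BL/6J mice, an inbred strain. Members were all array probes that the platform annotation assigned to a single gene with a symbol starting in Mrpl (large subunit) or Mrps (small subunit) followed by a number. There were 67 such probes for 65 genes, among 33012 probes in all and 14411 probes naming 1 gene. The large subunit had 43 probes for 42 genes and the small subunit 24 probes for 23 genes. The RefSeq table of assembly GRCm38.p6 holds 78 coding genes with such symbols, and 13 of them had no probe of this kind, among them Mrpl3, Mrpl12 and Mrps10.

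High gainers were male mice with high weight gain and low gainers were males with low weight gain on the same feeding schedule. They were fed high-fat diet for 6 weeks, low-fat diet for the next 2 weeks and high-fat diet again for the last 6 weeks. In the paper's experiment with this schedule, the low-fat diet of the middle weeks was restricted below each mouse's earlier intake. Age is not stated in the labels, and all mice of both groups were of the same strain with no allele or other agent named. RNA of 20 mice was pooled in each group and each pool was hybridised to 4 arrays of a 1-colour design, so the arrays of a group are technical replicates of 1 pool. Every p-value below therefore compares 2 pools of RNA against the spread between arrays and holds no information on the spread between mice. In RNA from whole tissue, fewer cells of a type and less RNA per cell cannot be told apart.

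Mitochondria hold their own ribosome, which translates the few proteins encoded by mitochondrial DNA, all of them subunits of the respiratory chain and of ATP synthase. Its RNAs come from mitochondrial DNA, whereas all of its proteins are encoded in the nucleus, made in the cytosol and imported. Part of these proteins belong to the families of bacterial ribosomal proteins, and the others are specific to mitochondria. The small subunit decodes the messenger RNA and the large subunit forms the peptide bond. Neurons rely on oxidative phosphorylation and so on this ribosome.

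The upstream sequence of several members is shown because the members share features there that the choice by symbol did not use. The RefSeq promoter table of GRCm38.p6 holds 57 of the 65 genes, each with 250 bases before and 50 bases after the transcription start. Mrpl11, Mrpl42, Mrpl49 and Mrpl32 had the smallest p-values of all members, Mrpl18 was the brightest member, and Mrps12 and Mrps11 start close to another gene of mitochondrial translation on the opposite strand. Their windows lie at chr19:4962056-4962355 (Mrpl11, + strand), chr10:95501900-95502199 (Mrpl42, - strand), chr19:6057706-6058005 (Mrpl49, - strand), chr13:14612988-14613287 (Mrpl32, - strand), chr17:12916042-12916341 (Mrpl18, - strand), chr7:28741772-28742071 (Mrps12, - strand) and chr7:78782881-78783180 (Mrps11, + strand). Each is written 5′ to 3′ on the strand of its gene, and capitals mark the motifs CCGGAAG (the core bound by ETS factors such as GABP), CGCATGCG (the core of the NRF1 site) and AAGATGGC (the site of YY1), or their reverse complements.
Mrpl11: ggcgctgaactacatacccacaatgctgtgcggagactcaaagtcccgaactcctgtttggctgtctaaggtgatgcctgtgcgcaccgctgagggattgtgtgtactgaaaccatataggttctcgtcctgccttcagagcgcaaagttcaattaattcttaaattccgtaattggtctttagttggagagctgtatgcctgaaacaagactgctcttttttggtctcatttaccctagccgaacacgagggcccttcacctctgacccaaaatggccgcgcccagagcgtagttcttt
Mrpl42: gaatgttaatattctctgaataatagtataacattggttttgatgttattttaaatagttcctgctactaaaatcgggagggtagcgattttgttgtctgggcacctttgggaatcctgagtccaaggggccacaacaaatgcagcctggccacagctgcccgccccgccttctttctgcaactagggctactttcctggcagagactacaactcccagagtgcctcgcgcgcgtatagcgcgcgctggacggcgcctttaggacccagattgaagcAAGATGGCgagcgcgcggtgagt
Mrpl49: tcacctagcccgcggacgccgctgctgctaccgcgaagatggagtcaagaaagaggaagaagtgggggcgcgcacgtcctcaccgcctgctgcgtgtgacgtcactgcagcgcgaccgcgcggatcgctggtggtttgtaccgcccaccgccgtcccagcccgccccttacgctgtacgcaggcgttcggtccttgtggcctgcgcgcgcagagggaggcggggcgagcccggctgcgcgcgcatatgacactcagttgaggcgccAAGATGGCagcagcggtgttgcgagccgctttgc
Mrpl32: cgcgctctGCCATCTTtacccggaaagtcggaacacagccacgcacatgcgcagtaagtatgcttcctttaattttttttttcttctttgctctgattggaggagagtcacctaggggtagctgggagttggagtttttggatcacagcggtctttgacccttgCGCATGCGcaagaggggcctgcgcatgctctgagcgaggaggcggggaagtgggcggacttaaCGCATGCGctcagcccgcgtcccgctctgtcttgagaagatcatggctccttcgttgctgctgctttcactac
Mrpl18: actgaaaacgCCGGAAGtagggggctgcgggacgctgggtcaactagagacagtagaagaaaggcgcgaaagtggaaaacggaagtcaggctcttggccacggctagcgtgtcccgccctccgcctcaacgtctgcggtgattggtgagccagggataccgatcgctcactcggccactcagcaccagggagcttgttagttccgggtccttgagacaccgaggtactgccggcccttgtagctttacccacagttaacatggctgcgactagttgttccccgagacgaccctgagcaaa
Mrps12: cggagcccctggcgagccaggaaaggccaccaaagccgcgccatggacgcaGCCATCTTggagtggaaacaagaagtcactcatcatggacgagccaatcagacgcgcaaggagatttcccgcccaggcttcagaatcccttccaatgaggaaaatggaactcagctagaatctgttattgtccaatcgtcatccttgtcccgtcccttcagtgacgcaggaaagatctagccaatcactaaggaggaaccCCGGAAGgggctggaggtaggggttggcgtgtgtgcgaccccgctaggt
Mrps11: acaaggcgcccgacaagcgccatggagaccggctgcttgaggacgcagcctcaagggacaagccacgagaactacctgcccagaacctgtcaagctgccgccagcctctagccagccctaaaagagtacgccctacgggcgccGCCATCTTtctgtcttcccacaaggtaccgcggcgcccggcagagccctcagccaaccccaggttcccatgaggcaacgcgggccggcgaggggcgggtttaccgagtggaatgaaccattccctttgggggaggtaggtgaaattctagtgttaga

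The motif CCGGAAG, searched on both strands, lay in the window of 20 of the 57 member genes (35.1%), against 12.9% of the 17491 coding genes in the same table. AAGATGGC was found in 10 member genes (17.5%), against 3.57% of coding genes. CGCATGCG, which is its own reverse complement, was found in 7 member genes (12.3%), 6 of the large and 1 of the small subunit, against 2.77% of coding genes. CCGGAAG and AAGATGGC can share bases where the first runs into the second. In all, 32 of the 57 genes (56.1%) held at least 1 of these 3 motifs. The TATA box hexamer TATAAA was found in 4 member genes (7.02%), against 14.8% of coding genes. A match is a description of the letters in this window, and binding of the factors was not measured.

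Many members start head to head with a neighbour, among them Mrps12 and Mrps11. For 20 of the 57 genes (35.1%) another gene in the table starts within 1000 bases on the opposite strand, against 8.48% of all 17491 coding genes. Mrps12, a subunit tied to decoding accuracy, starts 147 bases from Sars2, the mitochondrial seryl-tRNA synthetase. Mrpl46 and Mrps11, a large and a small subunit protein, start 42 bases from each other. Mrpl49 starts 192 bases from Fau, which encodes a cytosolic small subunit protein fused to a ubiquitin-like protein. The 65 genes lie on 17 chromosomes, with 8 on chromosome 11, so the members do not form a single cluster.

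Members were bright for this array. A probe was tested when all 4 high gainer arrays and the low gainer arrays 1, 3 and 4 gave a value, which held for 60 of the 67 member probes (89.6%) against 43.9% of all probes naming 1 gene. The 60 probes stand for 58 genes. Ranked by mean log2 intensity among the 11169 probes tested, the members had a median percentile of 71.0, with 70.8 for the large and 72.9 for the small subunit. Of the 60 probes, 45 (75%) were above the median of all probes tested, but only 2 (3.33%) were among the brightest 10%. The cytosolic ribosomal proteins had a median percentile of 96.2 and the subunits of the respiratory chain and ATP synthase one of 88.6. Percentiles compare the intensities of different probes and are not levels per length, so they do not rank the genes by transcript number.

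**Figure D1:**
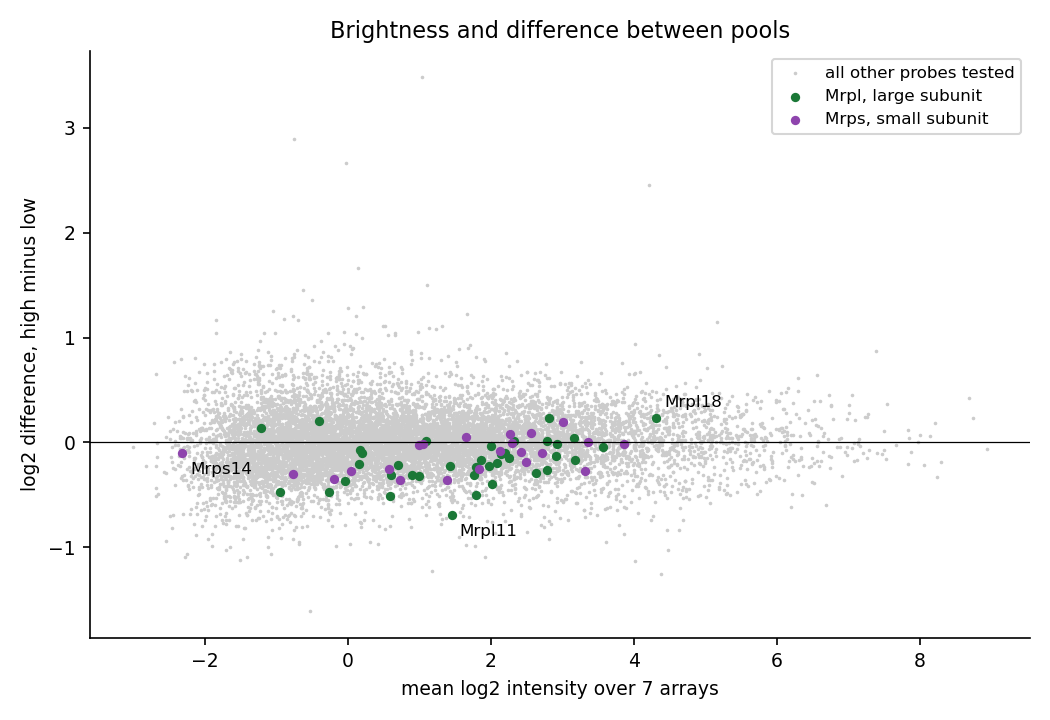
Brightness of the members against their difference between pools. The x axis is the mean log2 intensity over 7 arrays and the y axis the log2 difference, high minus low gainers; grey points are all probes tested, green points large and purple points small subunit probes. Members reach from Mrps14 at -2.32 to Mrpl18 at 4.31 in brightness, and Mrpl11 has the lowest difference, -0.70.

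The brightest member was Mrpl18, of the family of the bacterial protein that binds 5S rRNA, at percentile 94.0. Next came Mrps33, by 1 of its probes, with a mean log2 intensity of 3.86, then Mrpl13 with 3.56, Mrps6 with 3.36 and Mrps36 with 3.31. Mrps36 carries a ribosomal name but is now assigned to the alpha-ketoglutarate dehydrogenase complex. The dimmest was Mrps14, of a bacterial small subunit family, at percentile 0.421 with a mean of -2.32. The other dim members were Mrpl48 with -1.21, Mrpl36 with -0.95, Mrps11 with -0.76 and Mrpl2, a protein next to the peptidyl transferase centre, with -0.40.

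The 7 members that were not tested were also dim or without a value. Mrpl15 and Mrpl21 had no value on any of the arrays. Mrpl45 had a single value, an intensity of 0.255 on low gainer array 3. Mrpl4 had intensities of 0.467 to 0.647 in high gainers and of 0.473 and 0.681 on low gainer arrays 1 and 4. Mrpl51 had 0.265 to 0.639 in high gainers and 0.404 and 0.517 on low gainer arrays 3 and 4. Mrps2 had 0.220 to 0.568 in high gainers and 0.196 and 0.483 on low gainer arrays 1 and 4. Mrps5 had 0.339 to 0.461 on 3 high gainer arrays and 0.344 to 0.496 on low gainer arrays 1, 3 and 4. In these last 4 genes the ranges of the pools overlapped.

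**Figure D2:**
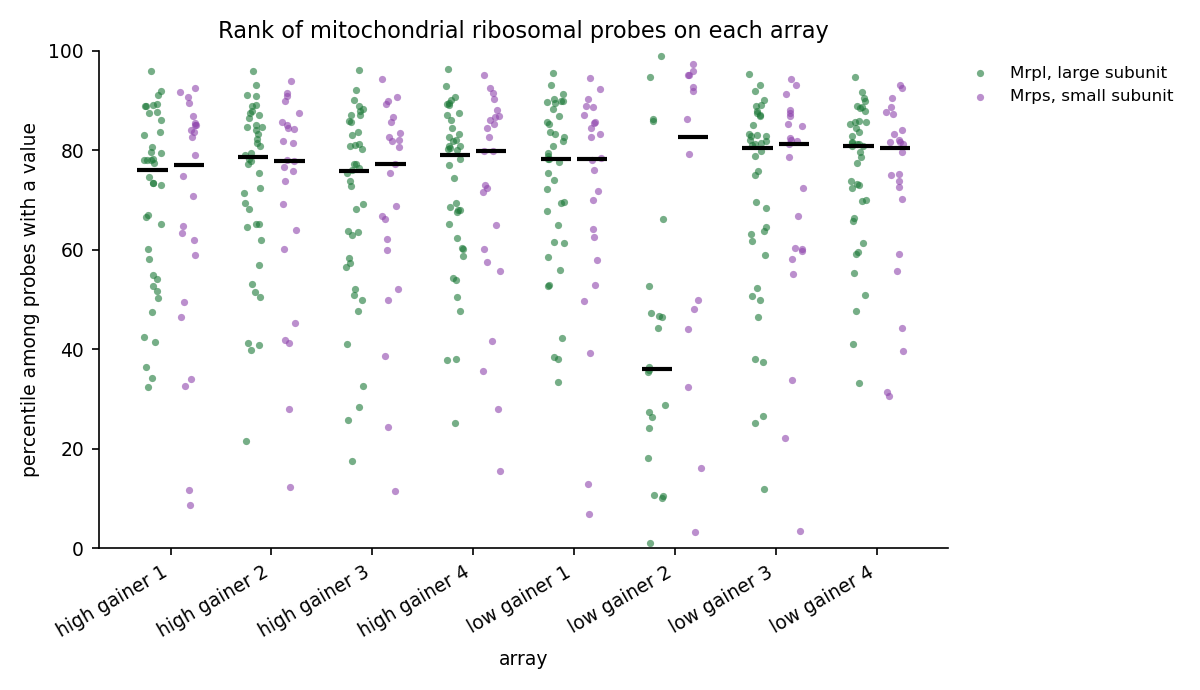
Rank of the members on each array. The y axis is the percentile of each member among the probes with a value on that array (x axis), green for the large and purple for the small subunit, and bars are medians. The large subunit median is 36.1 on low gainer array 2 and between 75.8 and 80.8 on the others.

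Low gainer array 2 is given apart because its values did not track those of the others. Over the 35 member probes with a value on all 8 arrays, its log2 values correlated with the mean of the other arrays at r = 0.344, against 0.948 to 0.990 for the other 7 arrays. Over all probes with the values needed, r was 0.239 for this array (5375 probes) and 0.967 to 0.990 for the others (11169 probes). For the others, the mean of the remaining arrays left out low gainer array 2, so the sets of probes differ. These correlations are across probes and describe the arrays. Only 36 of the 67 member probes had a value on it, against 63 or 64 on each other array. The median percentile of members among probes with a value was 46.6 on it and between 76.1 and 81.0 on the others.

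The members on low gainer array 2 were not displaced alike. The 22 large subunit probes with a value there had a median percentile of 36.1, and 16 of them were below 50, whereas the same probes had a median of 79.9 on the other arrays with 1 below 50. The 14 small subunit probes had a median percentile of 82.7 there and of 82.8 on the other arrays, but they too were split, with 6 below 50 against 2 on the other arrays. Mrpl16 had an intensity of 0.129 on it against 3.94 on high gainer array 1, and Mrpl52 had 67.7 against 7.20. Mrpl57 and Mrpl50 likewise had 0.265 and 0.270 there, against 8.15 and 7.96 on high gainer array 1. Of the tested members, 35 had a value on all 8 arrays, 22 of the large and 13 of the small subunit. Over these same probes the median log2 difference was -0.15 for the large and -0.09 for the small subunit with 7 arrays, and 0.10 and -0.28 with all 8. All comparisons below use the other 7 arrays.

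No member passed the test between the pools. Of the 60 member probes, 0 had an adjusted p under 0.05 by limma with Benjamini-Hochberg adjustment over all probes, against a background of 0.0269% (3 of 11169 probes, all higher in high gainers). At an unadjusted p under 0.05, 4 members (6.67%) were lower in high gainers, against 3.41% of all probes, and 0 were higher, against 3.07%. At the threshold of the study's methods, an unadjusted p under 0.01 with a 1.5-fold difference, 0 members passed, against 0.573% of all probes lower and 0.457% higher in high gainers. Both counts moved when single arrays were left out. At an unadjusted p under 0.05, 1 member was lower without high gainer array 1 (1.67%, against 1.63% of all probes), 1 without high gainer array 3 (1.64% against 2.46%) and 1 without low gainer array 4 (1.67% against 3.90%). There were 2 without high gainer array 4 (3.33% against 2.98%), 2 without low gainer array 3 (3.23% against 1.03%) and 5 without high gainer array 2 (8.33% against 3.12%). Without low gainer array 1 there were 13 of 61 (21.3%), but the share of all probes was then also higher, at 8.46%. At the threshold of the methods, 2 members passed without high gainer array 2 and 3 without low gainer array 1, where 86 and 669 of all probes passed, against 115 with all 7 arrays. In each of these settings 0 members were past the adjusted threshold. Adjusted p-values of members lay between 0.750 and 0.997. The arrays of the pools did not overlap in 3 members that were lower in high gainers, against 2.7% of all probes, and in 1 member that was higher, against 2.07%.

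The sign of the differences was less even than in all probes. The log2 difference, high minus low gainers, was negative in 47 of 60 member probes (78.3%), against 50.4% of all probes, and positive in 13 (21.7%), against 49.6%. Its median over the members was -0.16, with a range from -0.70 to 0.23, and over all probes it was -0.00. By subunit it was negative in 30 of 38 large subunit probes, with a median of -0.18, and in 17 of 22 small subunit probes, with a median of -0.10. The large minus small difference of these medians was -0.09. Taken per array, the large minus small median deviation differed by -0.08 between the pools, with an SD of 0.0790 between arrays of a pool. That SD is the spread of single arrays and not of the difference between the pools. Leaving out Mrps36 gave a small subunit median of -0.09. Counting Mrps30, which lies in the large subunit in ribosome structures, with the large subunit gave -0.17.

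**Figure D3:**
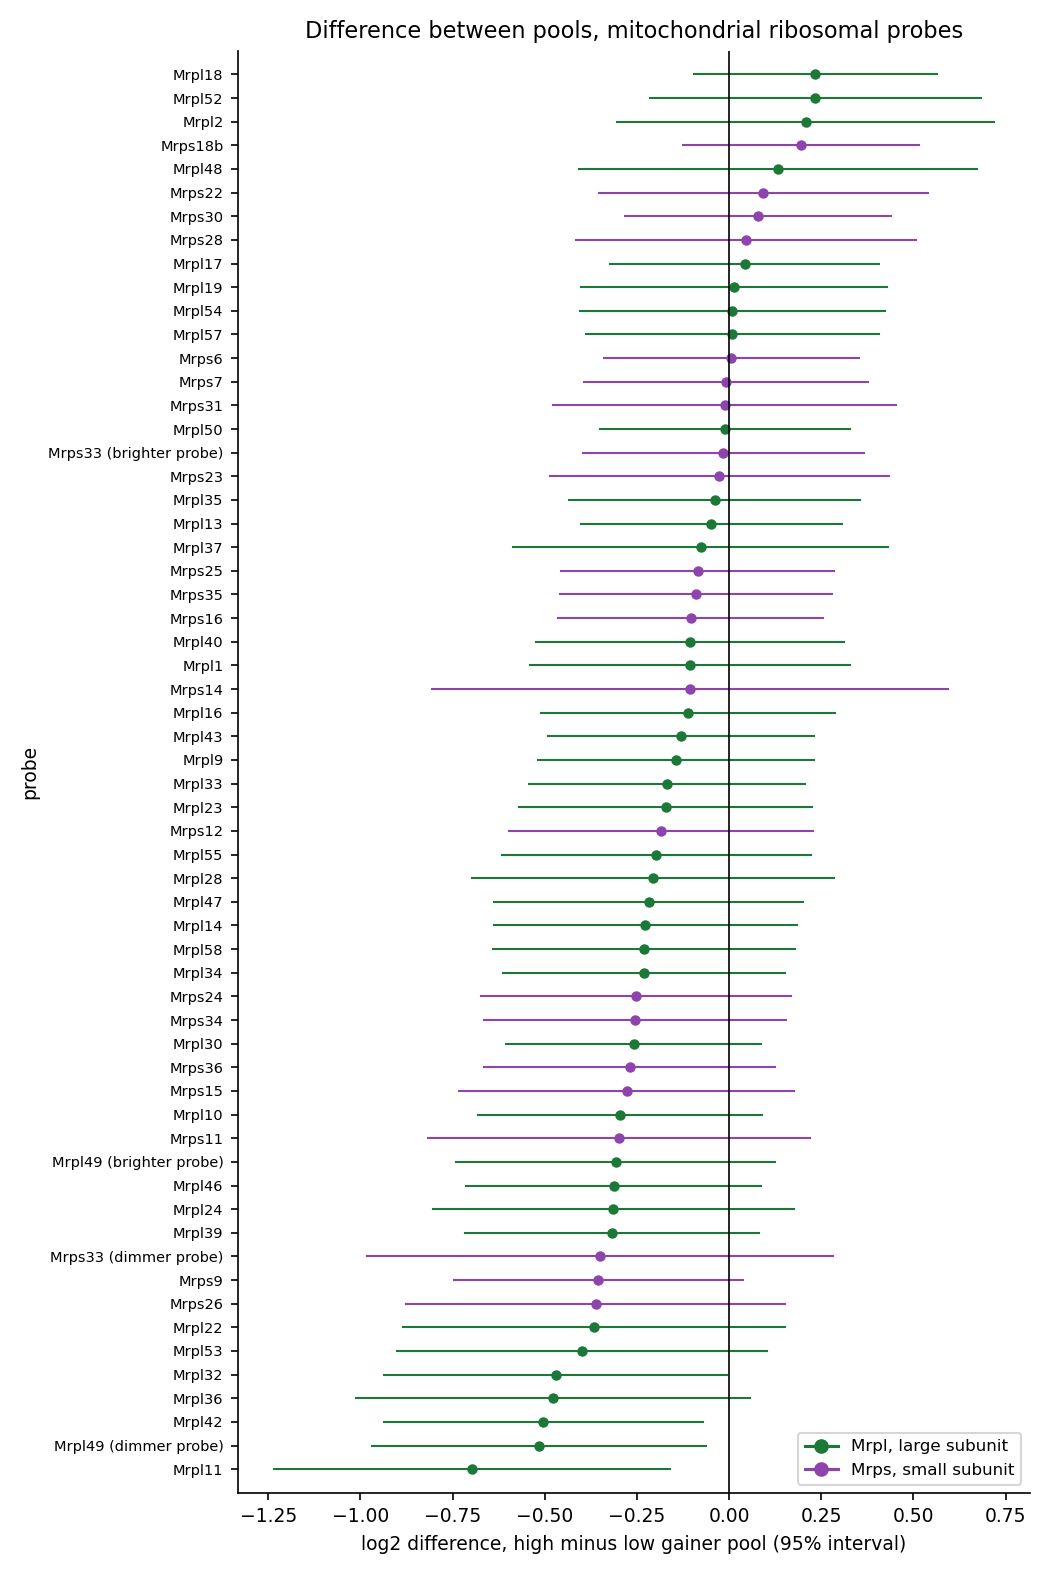
Log2 difference of every tested member. Points are log2 differences (x axis, high minus low gainers) with 95% intervals from limma for 60 probes (y axis), green for the large and purple for the small subunit. Of the points, 47 lie below 0, and 4 intervals exclude 0.

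A split by protein family gave medians of the same sign. The 34 probes of bacterial families had a median log2 difference of -0.18 and the 25 probes of mitochondria-specific proteins one of -0.09. Within the large subunit the medians were -0.20 and -0.13, and within the small subunit -0.11 and -0.06. The cytosolic ribosomal proteins had a median of -0.22, with 55 of 65 probes negative, and the subunits of the respiratory chain and ATP synthase one of -0.29, with 49 of 61 negative. No probe of either list passed the adjusted threshold, although 19 (29.2%) and 15 (24.6%) of them had an unadjusted p under 0.05 in the negative direction, against 3.41% of all probes, and 0 and 1 in the positive direction. The threshold of the methods was passed by 4 (6.15%) and 5 (8.20%), all negative, against 0.573% of all probes. Both lists shared the negative sign, and differences between the lists were not tested.

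The low gainer arrays did not contribute alike to this sign. As each array's median deviation of the members from their probe means on the log2 scale, the high gainer arrays stood at -0.07, -0.02, -0.10 and -0.03, and low gainer arrays 1, 3 and 4 at -0.02, 0.30 and 0.06. Low gainer array 1 stood only just above the highest high gainer array, and array 3 stood far above all others. The mean of these medians was -0.06 ± 0.0370 (SD, n = 4) in high gainers and 0.11 ± 0.164 (SD, n = 3) in low gainers. The large subunit stood at -0.03, 0.31 and 0.09 on the low gainer arrays 1, 3 and 4 and the small subunit at 0.01, 0.22 and -0.01. Both subunits thus were highest on low gainer array 3.

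**Figure D4:**
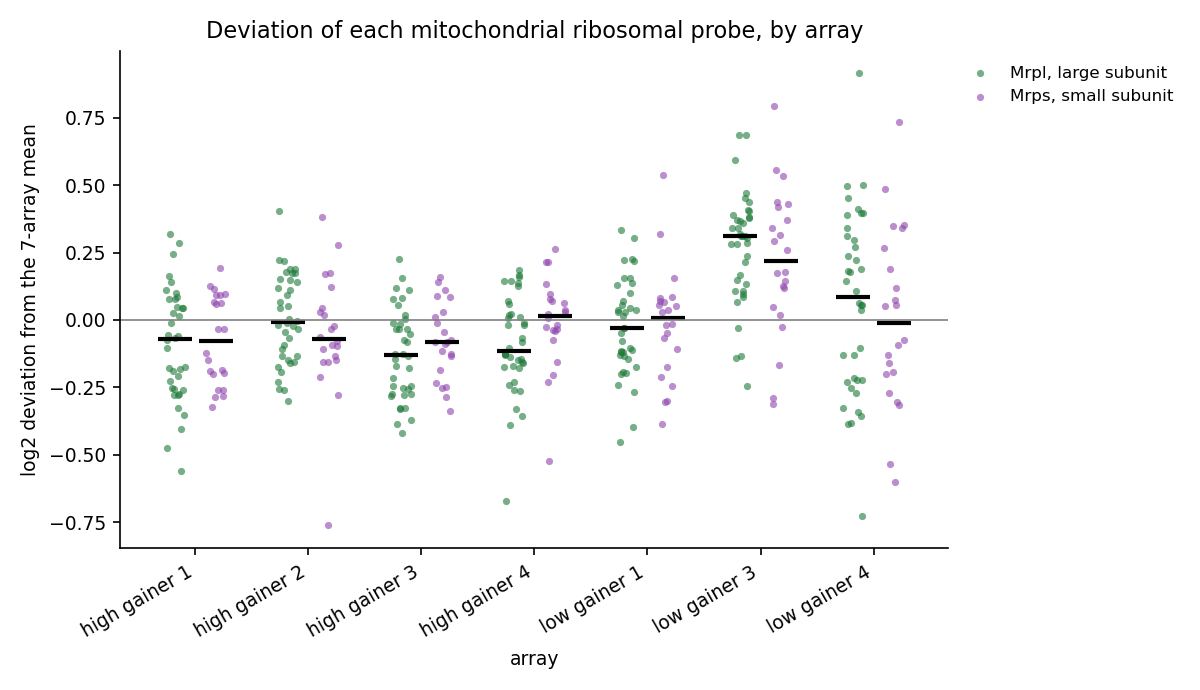
Median deviation of member groups on each array. The y axis is the log2 deviation of each tested member from its mean over 7 arrays, by array (x axis), green for the large and purple for the small subunit, and bars are medians. The large subunit bar is at 0.31 on low gainer array 3 and at -0.03 on low gainer array 1.

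Counts of single members gave the same picture. Low gainer array 3 was the highest of the 7 arrays in 33 members (55.0%), against 23.7% of all probes. Array 4 was the highest in 13 members (21.7%), against 22.3%, and array 1 in 6 members, against 13.1%. Low gainer arrays 3 and 4 both exceeded every high gainer array in 23 members (38.3%), 17 of the large and 6 of the small subunit, against 15.0% of all probes. The pattern was not particular to the members. Both arrays exceeded every high gainer array in 49.2% of cytosolic ribosomal and 45.9% of respiratory chain and ATP synthase probes. Array 3 was the highest in 69.2% and 49.2% of them. Array 1 was within the range of the high gainer arrays in 43 members, above it in 10 and below it in 7. The same counts were not taken over all probes, so they describe the members only. Without low gainer array 3 the median of the members was -0.07, with 38 of 62 probes negative, and without low gainer array 1 it was -0.23.

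The spread within the low gainer pool was also wider. The median SD between arrays on the log2 scale was 0.166 for the members in the high gainer pool and 0.293 in the low gainer pool, and it was larger in the low gainer pool for 51 of 60 members (85.0%). Over all probes the medians were 0.216 and 0.328, and the low gainer SD was larger in 72.5%. Between arrays 3 and 4 of the same low gainer pool, 43 of 60 members were higher on array 3, with a median difference of 0.30. That difference between arrays of 1 pool was larger than the median difference of -0.16 between the pools.

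The brightness of a member went with its sign on array 4. On low gainer array 4 the brighter 30 members had a median deviation of -0.21 and the dimmer 30 one of 0.25. On array 3 both stood high, with 0.28 and 0.31. Split at their own median, the brighter and the dimmer probes of all those tested stood at -0.02 and 0.04 on array 4. The cuts differ, with a mean log2 intensity of 1.85 for the members and 0.64 for all probes. All probes were also normalized to a common distribution, which limits such a shift in them, so the 2 splits are not a like comparison. The median log2 difference between pools was -0.09 in the brighter and -0.27 in the dimmer members, and all 4 members with an unadjusted p under 0.05 were among the dimmer ones.

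The 4 members with the smallest p-values all belonged to the large subunit. Mrpl11, a protein of the region where translation factors bind, had log2 values of 0.89, 1.56, 1.38 and 0.78 on high gainer arrays 1 to 4, against 1.42, 1.76 and 2.36 on the arrays 1, 3 and 4 of the low gainers. Arrays 3 and 4 of the low gainer pool were above every high gainer array, and array 1 was not. Its log2 difference was -0.70 (95% interval -1.23 to -0.16), 1.62-fold lower in high gainers, with an unadjusted p of 0.0145 and an adjusted p of 0.750 by limma.

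Mrpl42, specific to mitochondria, had log2 values of 1.38, 1.63, 1.46 and 1.81 in high gainers and of 1.67, 2.38 and 2.18 in low gainers. Again array 1 of the low gainers lay among the high gainer arrays. The log2 difference was -0.50 (95% interval -0.94 to -0.07), with an adjusted p of 0.752 by limma.

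Mrpl49, also specific to mitochondria and the neighbour of Fau described above, was measured by 2 probes. The dimmer probe had log2 values of 0.12, 0.81, 0.35 and 0.20 in high gainers and of 0.93, 0.83 and 0.90 in low gainers. The pools did not overlap on this probe, but high gainer array 2 came close to the lowest low gainer array. Its log2 difference was -0.52 (95% interval -0.97 to -0.06), with an adjusted p of 0.752 by limma. The brighter probe had 0.80, 1.06, 0.66 and 0.57 against 0.80, 1.26 and 1.17, which overlapped, with a log2 difference of -0.31 (95% interval -0.74 to 0.13). Both probes of the gene thus had a negative difference, and their intervals overlapped widely.

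Mrpl32 is cleaved to its mature form by the m-AAA protease of the inner membrane before it enters the ribosome. Its log2 values were -0.32, -0.41, -0.68 and -0.44 in high gainers and -0.23, 0.12 and 0.14 in low gainers, with no overlap. The log2 difference was -0.47 (95% interval -0.93 to -0.01), with an adjusted p of 0.756 by limma. Spg7, which encodes a subunit of that protease, had the smallest p of the lists of other mitochondrial translation genes. Its log2 values were 0.21, 0.41, 0.08 and -0.03 in high gainers and 1.06, 0.87 and 1.05 in low gainers. These did not overlap, and here low gainer array 1 stood with arrays 3 and 4. The log2 difference of Spg7 was -0.83 (95% interval -1.25 to -0.41), with an unadjusted p of 0.000840 and an adjusted p of 0.750 by limma, which is not past the threshold.

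**Figure D5:**
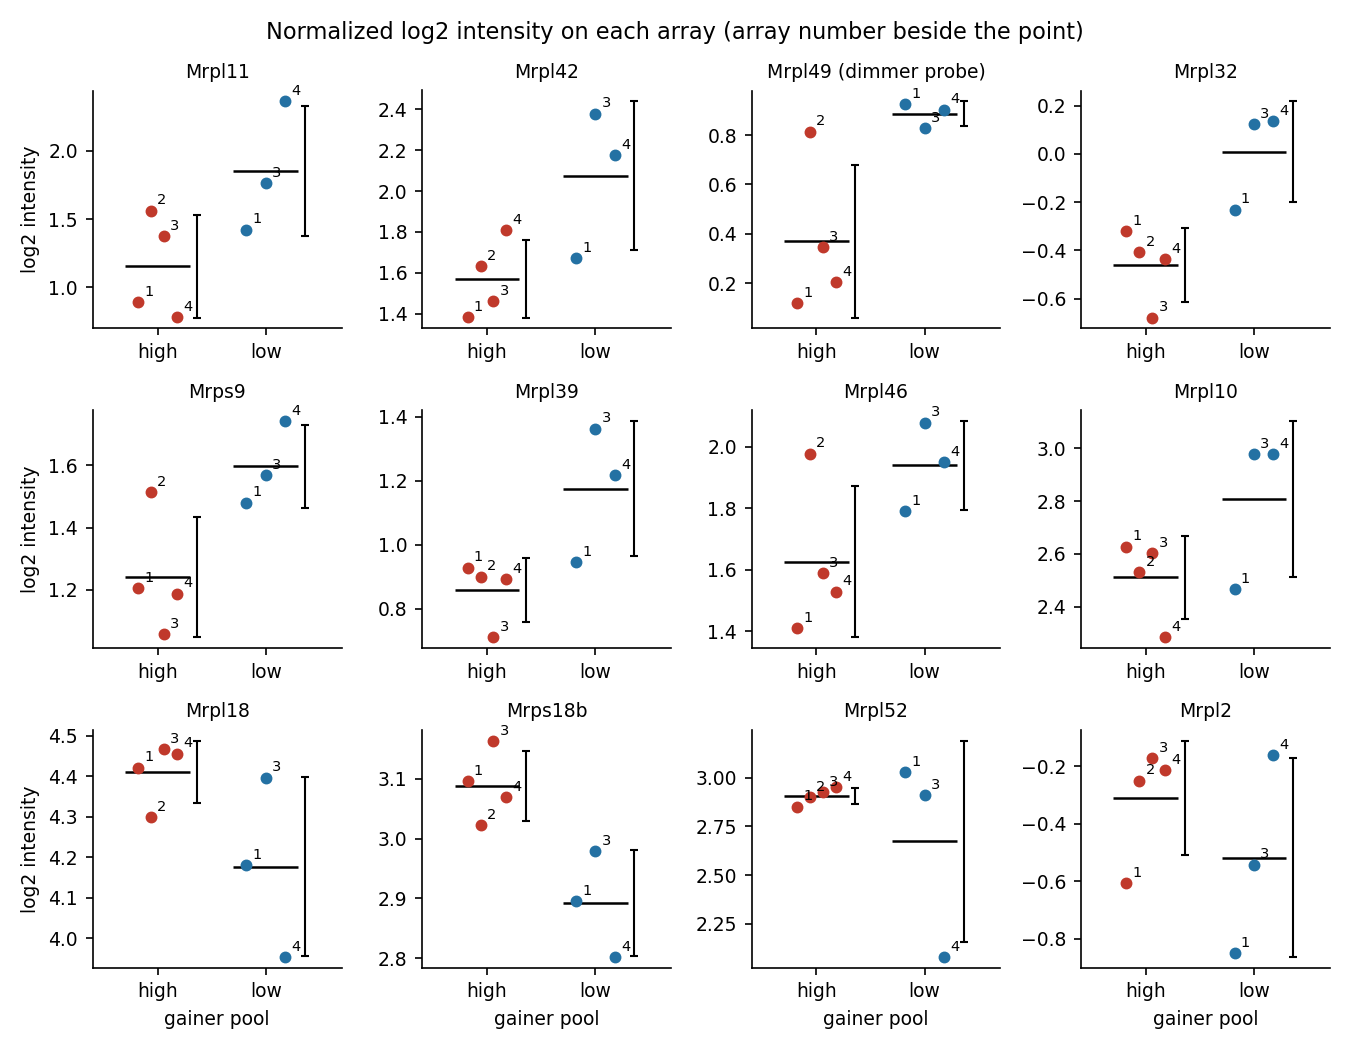
Log2 intensity of 12 members on each array. The y axis is the normalized log2 intensity, not starting at 0, red points are high and blue points low gainer arrays with the array number beside them, and bars are the mean with the SD at its side (n = 4 and 3 arrays). Low gainer array 1 lies apart from arrays 3 and 4 in Mrpl42, Mrpl32 and Mrpl39, and array 4 is alone at 2.08 in Mrpl52.

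Mrpl39, specific to mitochondria, was the third member without overlap in this direction. Its log2 values were 0.93, 0.90, 0.71 and 0.89 in high gainers and 0.95, 1.36 and 1.22 in low gainers, and array 1 was only just above the highest high gainer array. The log2 difference was -0.32 (95% interval -0.72 to 0.08). The other members among the 10 with the smallest p on this side were Mrps9 with a log2 difference of -0.36, Mrpl36 with -0.48, Mrpl53 with -0.40, Mrpl46 with -0.31 and Mrpl10, at the base of the ribosomal stalk, with -0.30. Adjusted p-values of these 6 genes lay between 0.782 and 0.807 by limma. Mrpl53 rested on single arrays, with -0.17 without low gainer array 3 and -0.71 without low gainer array 1. Mrpl10 had -0.47 without low gainer array 1. Of the other intervals, that of Mrps9 ran from -0.75 to 0.04 and that of Mrpl36 from -1.01 to 0.06.

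On the other side the differences were smaller. Mrps18b, of 1 of the S18 families of the small subunit, had log2 values of 3.10, 3.02, 3.16 and 3.07 in high gainers and of 2.90, 2.98 and 2.80 in low gainers. It was the only member whose high gainer arrays all stood above the low gainer arrays. The log2 difference was 0.19 (95% interval -0.13 to 0.52), with an adjusted p of 0.858 by limma. Mrpl18 had 4.42, 4.30, 4.47 and 4.46 against 4.18, 4.40 and 3.95, where low gainer array 3 lay within the high gainer range. Its log2 difference was 0.23 (95% interval -0.09 to 0.56), with an adjusted p of 0.827 by limma.

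Single low arrays set several of the remaining differences. Mrpl52 had log2 values of 2.85 to 2.95 in high gainers and of 3.03, 2.91 and 2.08 on low gainer arrays 1, 3 and 4, a log2 difference of 0.23. Low gainer array 4 alone was low, and without it the difference was -0.06. Mrps22 likewise had 2.46 to 2.75 against 2.88, 2.68 and 1.96, a difference of 0.09 that was -0.18 without that array. Mrps28 had 1.53 to 1.79 against 1.69, 2.07 and 1.12, a difference of 0.05 that was -0.21 without it. Mrpl2 and Mrpl48 had log2 differences of 0.21 (95% interval -0.30 to 0.72) and 0.13 (95% interval -0.41 to 0.67). Mrpl2 had 0.04 without low gainer array 1 and 0.38 without array 4, and Mrpl48 had 0.06 without array 4 and 0.24 without high gainer array 3. Mrps30, Mrpl17 and Mrpl19 had 0.08, 0.04 and 0.01.

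Among the other bright or dim members, differences were small beside their intervals. Mrps33, a small subunit protein specific to mitochondria, had log2 values of 3.60 to 4.08 in high gainers and of 3.93, 4.12 and 3.56 in low gainers for its brighter probe, with a log2 difference of -0.02 (95% interval -0.40 to 0.37). Its dimmer probe, with a mean of -0.18, had a log2 difference of -0.35 (95% interval -0.98 to 0.28). Mrpl13 had a log2 difference of -0.05 (95% interval -0.40 to 0.31) and Mrps6 one of 0.01 (95% interval -0.34 to 0.35). Mrps36 had 3.06 to 3.28 against 3.10, 3.86 and 3.43, with a log2 difference of -0.27 (95% interval -0.66 to 0.12). Mrps14 was the dimmest member and had -2.47 to -2.23 against -2.70, -2.48 and -1.58, with a log2 difference of -0.11 (95% interval -0.81 to 0.59). Intervals of this width do not show that the pools were alike.

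The promoter features were set beside the differences as a description. The 19 tested probes of genes with CCGGAAG had a median log2 difference of -0.10 and the 35 without it -0.22. The 11 tested probes of genes with AAGATGGC, with Mrpl49 counted by both its probes, had a median of -0.30, and the 43 without it -0.14. They ran from -0.52 in the dimmer Mrpl49 probe to -0.08 in Mrpl37, -0.04 in Mrpl35 and -0.01 in Mrps7. Mrpl11, the member with the lowest difference, did not hold this motif. For CGCATGCG the medians were -0.30 in 7 probes with it and -0.17 in 47 without it. For TATAAA they were -0.18 in 4 probes with it and -0.18 in 50 without it. The head-to-head pairs were named after their values were seen. Mrpl46 and Mrps11 had log2 differences of -0.31 and -0.30, and Mrps12 and Sars2 had -0.19 and -0.20. Fau had -0.52, against -0.31 and -0.52 for the Mrpl49 probes, with an adjusted p of 0.750 by limma. The other pairs with a tested partner were not all alike. Mrpl47 had -0.22 and Ndufb5 -0.47, Mrpl50 -0.01 and Zfp189 -0.11, and Mrpl40 -0.11 and Hira -0.05. Mrps7 had -0.01 and Gga3 -0.42, Mrpl14 -0.23 and Tmem63b 0.15, Mrpl18 0.23 and Tcp1 0.04, and Mrpl2 0.21 and Klc4 0.07. No partner passed the adjusted threshold.

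Subunits of the mitochondrial ribosome with other symbols gave differences of both signs. Dap3, a GTP-binding small subunit protein first known from cell death, had a log2 difference of 0.23 (95% interval -0.11 to 0.57). Ptcd3, a pentatricopeptide protein of the small subunit, had 0.16 (95% interval -0.45 to 0.76). Chchd1, a small subunit protein, had -0.22 (95% interval -0.66 to 0.22), and Gadd45gip1, a large subunit protein, had -0.14 (95% interval -0.62 to 0.35). These were the 4 of 5 listed genes that had a tested probe, and 0 of them passed the adjusted threshold by limma (0 also at an unadjusted p under 0.05).

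Genes that act around the ribosome were taken as 4 lists. Translation factors had 7 of 15 listed genes tested with a median log2 difference of -0.16, and assembly factors 13 of 19 with -0.03. Mitochondrial tRNA synthetases had 8 of 22 tested with -0.17, and genes of mitochondrial DNA replication and transcription 8 of 14 with -0.18. Of the 36 probes together, 24 were negative (66.7%), against 50.4% of all probes, and 0 passed the adjusted threshold by limma. An unadjusted p under 0.05 by limma was reached by 3 of them, all negative, against 3.41% of all probes lower and 3.07% higher. Besides Spg7 these were the arginyl- and tyrosyl-tRNA synthetases of mitochondria. Rars2 had log2 values of -0.93 to -0.43 in high gainers and of -0.28 to 0.21 in low gainers, without overlap, and a log2 difference of -0.57 (95% interval -1.07 to -0.08). Yars2 had -0.11 to 0.12 against -0.00, 0.85 and 0.71, a log2 difference of -0.51 (95% interval -1.01 to -0.02).

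Marker sums of pituitary and red cells did not overlap between the pools, and those of the other lists did. The summed deposited intensity of the pituitary markers was 11.3 to 13.1 in high gainers and 2.02 to 2.90 in low gainers (without array 2). It came from 13 of 17 listed genes with a probe, with Ghrhr, Pitx1 and Trhr without a value. Gh, Prl and Cga were higher on every high gainer array, whereas Lhx3, Lhb and Pax7 overlapped where they had values. Empty cells added nothing to a sum. The oligodendrocyte markers summed to 58.9 to 92.9 against 18.9 to 60.1 (7 of 12 with a probe), and the red cell markers to 8.94 to 15.0 against 18.4 to 37.5 (4 of 7). The hypothalamic markers, with 16 of 18 genes on the array and Ghrh and Nkx2-1 without a value, summed to 45.0 to 53.1 against 50.8 to 63.2. Choroid plexus markers summed to 274 to 314 against 303 to 405 (7 of 9), astrocyte markers to 6.13 to 9.79 against 5.76 to 9.19 (5 of 8) and microglia markers to 15.8 to 19.0 against 15.2 to 17.4 (6 of 8). The part of these markers in the differences of the mitochondrial ribosomal genes was not tested.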

How the data were processed

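The authors labelled cRNA of each pool with digoxigenin, hybridised it to Applied Biosystems mouse arrays read by chemiluminescence and normalized signals by a quantile method, as the methods of the study state. Deposited values were intensities on a linear scale, with many empty cells. The sources used here do not name the step that emptied them. Between 13657 and 16873 of 33012 probes had a value on an array, with medians of 0.714 to 1.05. Precision is limited by the number of arrays.

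Deposited intensities were taken to log2 and quantile normalized again over the 11169 probes with a value on 7 arrays. Pools were compared with limma 3.58.1 in R 4.3.3 (lmFit, eBayes with a trend), with Benjamini-Hochberg adjustment over all probes and a threshold of 0.05. On simulated data of these 11169 probes and 7 arrays, 48.2% of probes changed 2-fold and 93.2% changed 4-fold were recovered. The simulation drew every value independently, with the same SD for both pools. In the data the median SD was 0.216 in high and 0.328 in low gainers, and shifts shared by many probes were not simulated. Recovery in the data can therefore differ from these shares. The members and gene lists were chosen with earlier results of these data known. The NRF1 core was searched after a longer form of that site, and motif shares are descriptions. Groups come from the sample labels, and low gainer array 2 was kept apart for its poor correlation with the other arrays.

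Named members were those past the adjusted threshold, the 10 smallest p on each side, those without overlap, the 5 brightest and 5 dimmest, genes with several probes, ribosomal proteins with other symbols, Mrps36, and the 3 smallest p in the other lists. Genes without a test, on array 2, or in head-to-head pairs were named beyond this rule after their values were seen. Alternatives were other normalizations, brightness filters, a pseudocount of 0.186, missing values allowed, all 8 arrays, the replicate block, no trend, array weights, the methods' t-test and leaving out each array.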

Additional observations from a re-analysis of the deposited data

Results flagged for a closer look

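In 32 groups of 4 arrays examined, 2 values stood apart from the other arrays of their group, and chance alone sets apart about 1 in 20 groups. On high gainer array 4 the Mrpl53 probe had a log2 intensity of 2.15, against 1.74 to 1.76 on the other high gainer arrays. The median percentile of member probes on low gainer array 2 was 46.6, against 78.2 to 81.0 on the other low gainer arrays.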

How the results depend on the processing

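The count of members past the adjusted threshold was 0 in every alternative run, and the member median stayed negative, from -0.23 without low gainer array 1 to -0.07 without low gainer array 3. Without low gainer array 1, 13 of 61 members (21.3%) were lower at an unadjusted p under 0.05, against 8.46% of all probes, with a smallest adjusted p of 0.0774 by limma. Over all probes 3 were called; there was 1 among the brightest 50%, 1 with all 8 arrays, 9 with the replicate block, 0 with the methods' t-test, and 2 to 171 leaving out each array in turn, the 171 without low gainer array 1. All 8 arrays gave medians of 0.10 for the large and -0.28 for the small subunit, a difference of 0.37. Leaving out each array gave -0.26 to -0.09, -0.18 to -0.03 and -0.14 to -0.03 for these 3 quantities. Same-numbered arrays deviated with r of -0.20, 0.13 and -0.14, and differently numbered ones with r from -0.52 to 0.45. So few values gave no sign that the numbers pair the arrays, but they cannot exclude it. With the replicate block the member median was -0.18. Members past the threshold of the methods were 0, but 1 with median centring, 1 with the replicate block, 2 without high gainer array 2 and 3 without low gainer array 1. Of all 11169 probes, 115 passed it in the main fit, 137 with median centring and 176 with the replicate block. The counts were 86 of 11228 without high gainer array 2 and 669 of 11247 without low gainer array 1. The 8-array values rest on 35 member probes. The cause of these shifts was not tested.

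Some log2 differences of single genes changed sign. With all 8 arrays they were 0.11 for Mrpl39, -0.58 for Mrpl52, -0.27 for Mrps22, -0.65 for Ptcd3 and 0.34 for Chchd1. With array weights they were -0.054 for Mrpl17, -0.075 for Mrps28, -0.013 for Mrpl19, -0.053 for Mrps6 and 0.0050 for Mrps14. Mrpl19 had -0.0067 among the brightest 50% and -0.0030 with the replicate block, Mrps6 -0.012 with median centring, and the brighter Mrps33 probe 0.0067 with missing values allowed and 0.013 with the replicate block. Leaving out each array in turn gave -0.065 to 0.41 for Mrpl52, -0.057 to 0.16 for Mrps30, -0.18 to 0.28 for Mrps22, -0.12 to 0.14 for Mrpl17, -0.21 to 0.26 for Mrps28, -0.093 to 0.10 for Mrpl19, -0.13 to 0.10 for Mrps6, -0.20 to 0.093 for Mrpl13, -0.17 to 0.11 for Mrps33 (brighter probe), -0.33 to 0.23 for Mrps14, -0.13 to 0.45 for Ptcd3 and -0.30 to 0.016 for Gadd45gip1. Without a change of sign, leaving out low gainer array 3 or 1 gave -0.07 and -0.45 for Mrps36, -0.06 and -0.57 for the dimmer Mrps33 probe, and -0.35 and -0.78 for Yars2. Mrps11 had -0.11 without low gainer array 1, Mrpl11 -0.44 and Mrpl18 0.12 without low gainer array 4, Chchd1 -0.0056 without low gainer array 3 and -0.38 without array 4, Dap3 0.36 without low gainer array 1, and Sars2 -0.04 and -0.38 without high gainer arrays 3 and 1.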

Other observations

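Allowing missing values gave differences for 4 members that were otherwise not tested. The log2 difference, high minus low gainers, was -0.43 for Mrpl51 (95% interval -1.29 to 0.43), -0.12 for Mrpl4 (95% interval -0.77 to 0.54), 0.10 for Mrps2 (95% interval -0.87 to 1.08) and -0.01 for Mrps5 (95% interval -0.65 to 0.63). These fits used 6 arrays each, and the adjusted p-values lay between 0.917 and 0.996 by limma.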
